A study of Cucumis melo with 4 samples.

Results

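Glutamine synthetase, nitrate reductase and a nitrate transporter serve 3 steps of nitrogen use in plants, and the levels of 1 assembled melon (Cucumis melo) transcript of each were described in plants of 4 sex types. The 3 transcripts are Unigene48986_All, annotated as the chloroplastic leaf isozyme of glutamine synthetase, Unigene38492_All, annotated as NADH-dependent nitrate reductase, and Unigene64632_All, annotated as nitrate transporter 1.7. They are 3 of 76260 unigenes, the transcripts that were assembled from the sequencing itself. They were selected on measured values, namely their large ratios between single libraries of these data, so their own levels are given as a description with no test. The monoecious plants, with male and female flowers, are labelled AAGG, and the gynoecious plants, with female flowers only, AAgg. The hermaphrodite plants, with bisexual flowers only, are labelled aaGG, and the andromonoecious plants, with male and bisexual flowers, aagg. Headers of other deposited tables exchange the last 2 genotypes, so libraries are named here by sex type. Each library is 1 bulk, made by mixing equal amounts of RNA extracted from separate recombinant inbred lines, over true leaves, axillary buds with fresh leaves, and flower buds of different sizes. A difference between bulks can therefore come from fewer cells of a type or from less RNA per cell, which cannot be told apart.

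Each sex type has 1 library, so no value below has a replicate check. The libraries held 25.51 to 27.04 M reads, and 66492 to 69811 unigenes had at least 1 read. The hermaphrodite library carries another flow cell code in its title than the other 3, so flow cell and sex type cannot be told apart for it. Levels are RPKM, the number of reads divided by transcript length in kilobases and by library size in M reads, and read numbers were recovered from them. Folds between libraries are ratios of reads scaled by library size times a TMM factor, which adjusts for library composition. The factors ran from 0.928 to 1.06, so folds are not exact ratios of the RPKM values. The intervals behind the folds are exact binomial 95% intervals for counting error only.

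Plants take up nitrate through membrane transporters, and nitrate reductase, a molybdenum enzyme of the cytosol, reduces it to nitrite. Nitrite reductase in the plastid makes ammonium, which glutamine synthetase fixes on glutamate to give glutamine, and glutamate synthase (GOGAT) then returns glutamate. The leaf isozyme of glutamine synthetase works in the chloroplast and also recaptures the ammonium that photorespiration releases. In Arabidopsis, NRT1.7 loads nitrate into the phloem of older leaves and so serves its movement to younger tissue.

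The nitrate transporter unigene was nearly missing from the andromonoecious library. Unigene64632_All had 83 monoecious, 103 gynoecious, 141 hermaphrodite and 4 andromonoecious reads. Its level was 5.17 RPKM (interval 4.12 to 6.41) in the monoecious, 6.49 RPKM (5.30 to 7.88) in the gynoecious, 8.58 RPKM (7.22 to 10.1) in the hermaphrodite and 0.258 RPKM (0.0703 to 0.660) in the andromonoecious library. The andromonoecious interval lies under the other 3. The andromonoecious level was 29.1-fold lower than the hermaphrodite (interval 11.1 to 108), 22.3-fold lower than the gynoecious (8.45 to 83.4) and 19.2-fold lower than the monoecious (7.21 to 72.0). With 4 reads, the size of these folds is poorly fixed. The other 3 libraries lay close together. The hermaphrodite library was 1.52-fold above the monoecious (1.15 to 2.01) and 1.30-fold above the gynoecious (1.00 to 1.7), and gynoecious and monoecious did not differ beyond counting error (1.16-fold, 0.862 to 1.57).

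The nitrate reductase unigene was highest in the monoecious library. Unigene38492_All had 140 monoecious, 33 gynoecious, 33 hermaphrodite and 17 andromonoecious reads. This is 7.49 RPKM (6.30 to 8.84), 1.79 RPKM (1.23 to 2.51), 1.72 RPKM (1.19 to 2.42) and 0.941 RPKM (0.548 to 1.51) in the same order. The monoecious interval lies above the other 3, which overlap each other. The monoecious level was 4.53-fold above the gynoecious (3.08 to 6.83), 4.75-fold above the hermaphrodite (3.23 to 7.17) and 7.61-fold above the andromonoecious (4.59 to 13.4). Neighbours in the order below it did not differ beyond counting error, with 1.05-fold between gynoecious and hermaphrodite (0.628 to 1.75) and 1.6-fold between hermaphrodite and andromonoecious (0.867 to 3.07).

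The leaf glutamine synthetase unigene was not detected in the hermaphrodite library. Unigene48986_All had 202 monoecious, 188 gynoecious, 0 hermaphrodite and 334 andromonoecious reads. Its level was 4.01 RPKM (3.48 to 4.60) in the monoecious, 3.77 RPKM (3.25 to 4.35) in the gynoecious and 6.86 RPKM (6.14 to 7.64) in the andromonoecious library. A count of 0 allows up to 3 reads, or 0.0581 RPKM, in the hermaphrodite library, and the exact 95% interval reaches 0.0715 RPKM. Against that floor of 3 reads in the library, the hermaphrodite level was at least 75.4-fold lower than the monoecious, at least 65.8-fold lower than the gynoecious and at least 135-fold lower than the andromonoecious level. The lower limits of the exact intervals of these folds, which allow for somewhat more than 3 reads, were 60.8, 53.0 and 109. Among the libraries with reads, the andromonoecious was 1.79-fold above the monoecious (1.5 to 2.14) and 2.05-fold above the gynoecious (1.71 to 2.47). Monoecious and gynoecious did not differ beyond counting error (1.15-fold, 0.935 to 1.41).

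**Figure D1:**
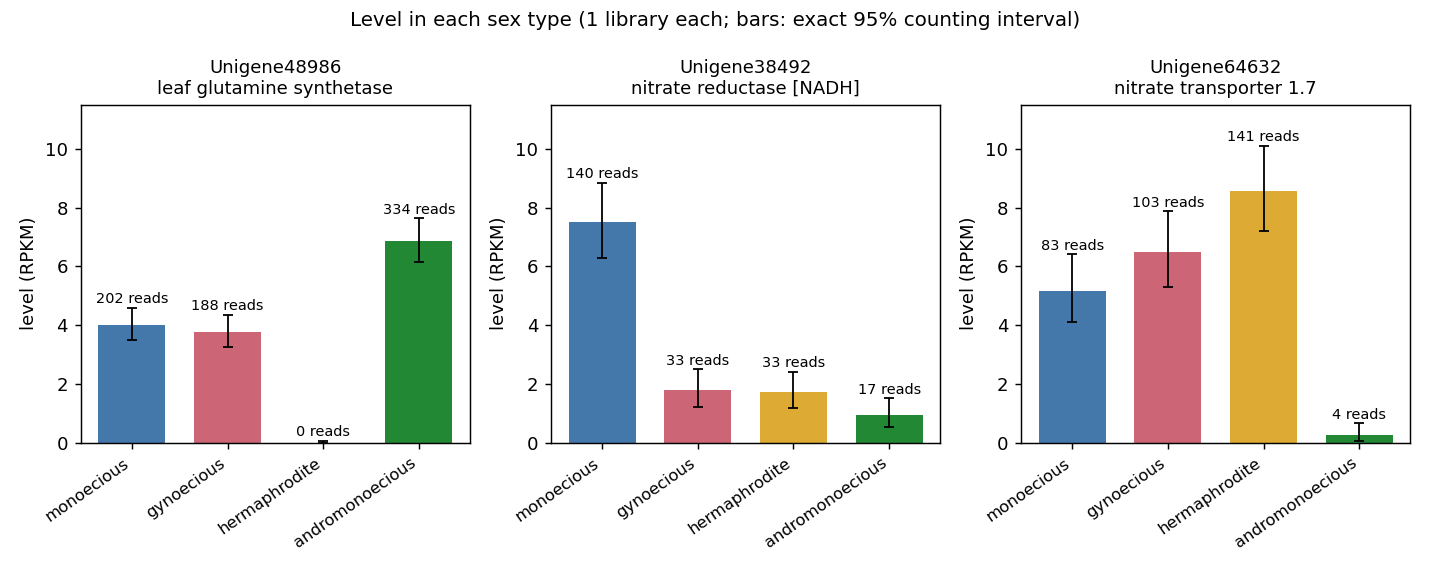
Level of each of the 3 unigenes in RPKM (vertical axis) in the 4 libraries, 1 per sex type, with the exact 95% counting interval as error bars and the number of reads above each bar. The library that stands apart is another one each time: hermaphrodite for the glutamine synthetase unigene (0 reads), monoecious for the nitrate reductase unigene (140 reads) and andromonoecious for the nitrate transporter 1.7 unigene (4 reads).

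The 3 unigenes therefore did not share a pattern. Expressed as the share of a unigene's own RPKM summed over the libraries, glutamine synthetase had 46.8% in the andromonoecious library, nitrate reductase 62.7% in the monoecious and the transporter 41.8% in the hermaphrodite. The summed absolute difference of such shares runs from 0 for the same pattern to 2 for patterns with no library in common. It was 0.996 between glutamine synthetase and nitrate reductase, 0.955 between glutamine synthetase and the transporter, and 0.882 between nitrate reductase and the transporter. Levels per length were of the same order. In the monoecious library nitrate reductase was at 7.49 RPKM, the transporter at 5.17 and glutamine synthetase at 4.01, at the 78.5, 73.4 and 69.5 percentile of all unigenes, and the intervals of the last 2 overlapped.

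The unigenes are partial matches to annotated melon coding sequences (CDS), and their reads were counted over their whole length. Unigene48986_All is 1909 nt long, and 972 nt of it matched positions 811 to 1782 of the CDS MELO3C006577 at 99.79% identity, on the reverse strand, which leaves 937 nt without a match. Unigene38492_All is 708 nt long, and its last 269 nt matched positions 333 to 601 of MELO3C022772 at 100% identity. Unigene64632_All is 608 nt long, and 553 nt matched positions 688 to 1240 of MELO3C012055 at 99.28% identity, on the reverse strand. The match covered 91.0% of the transporter unigene, 50.9% of the glutamine synthetase unigene and 38.0% of the nitrate reductase unigene. Whether counting used strand is not given in the sources used here, so reads of a transcript overlapping on the other strand may be included.

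Such patterns were uncommon among unigenes of comparable evidence. Of 4212 unigenes with at least 100 reads and a match of at least 95% identity over at least 100 nt, 13 (0.309%) had 0 hermaphrodite reads, as glutamine synthetase did. In 10 of them (0.237%) the monoecious library was at least 4-fold above all others, as for nitrate reductase, and in 14 (0.332%) the andromonoecious library was at least 4-fold below all others, as for the transporter. Over other libraries and directions such shares reached 1.88% (79 unigenes), for a gynoecious library at least 4-fold below all others. The counts of 13, 10 and 14 include the members themselves. The members were selected for such ratios, so these shares only place them.

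The authors' deposited table for gynoecious over hermaphrodite lists the CDS of the transporter, MELO3C012055, with a log2 ratio of −11.72 and a false discovery rate of 2.69e-07. The values printed in the authors' deposited table, 0 monoecious, 0 gynoecious, 25 hermaphrodite and 5 andromonoecious reads over 275 nt, are not those of Unigene64632_All. They match the RPKM of Unigene65796, which carries no CDS in the per-library files. Only that deposited row ties Unigene65796 to this CDS, so whether the 2 unigenes belong to the same gene is not settled. They differ in the monoecious and gynoecious libraries, where Unigene64632_All had 83 and 103 reads and Unigene65796 none. Both had more reads in the hermaphrodite than in the andromonoecious library. The CDS of the glutamine synthetase and nitrate reductase unigenes were not listed in any of the 4 authors' deposited tables.

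The relatives of each member were then looked at. A second unigene annotated as nitrate reductase, Unigene19067 on another CDS (MELO3C010444), had 88 monoecious, 12 gynoecious, 41 hermaphrodite and 36 andromonoecious reads over 360 nt, or 9.26, 1.28, 4.21 and 3.92 RPKM. It too was highest in the monoecious library, 7.83-fold above the gynoecious (4.26 to 15.7), 2.40-fold above the hermaphrodite (1.64 to 3.57) and 2.26-fold above the andromonoecious (1.52 to 3.43). Its order below the monoecious library was not that of Unigene38492_All, which was lowest in the andromonoecious library. The authors' deposited table for hermaphrodite over andromonoecious prints other values for the same CDS, MELO3C010444. They are 2 monoecious, 1 gynoecious, 0 hermaphrodite and 12 andromonoecious reads, highest in the andromonoecious library. These values match Unigene63079, which carries no CDS in the per-library files, so whether it is part of a nitrate reductase transcript is not settled. The only unigene annotated as nitrite reductase, the next enzyme, had 9 monoecious, 2 gynoecious, 0 hermaphrodite and 0 andromonoecious reads, too few for a comparison. Molybdenum cofactor sulfurase, which acts on the cofactor type of molybdenum enzymes other than nitrate reductase, had 30, 10, 17 and 16 reads in the same order of libraries.

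Ferredoxin-dependent GOGAT, the chloroplast partner of leaf glutamine synthetase, was highest in the monoecious library. Unigene2117 had 2461 monoecious, 700 gynoecious, 502 hermaphrodite and 1177 andromonoecious reads, or 78.0, 22.4, 15.5 and 38.6 RPKM. The monoecious level was 5.49-fold above the hermaphrodite (4.99 to 6.06), 3.75-fold above the gynoecious (3.45 to 4.09) and 1.93-fold above the andromonoecious (1.80 to 2.07). Unigene44169, given the same CDS with no match in the deposited match table, had 113, 63, 55 and 27 reads in the order monoecious, gynoecious, hermaphrodite and andromonoecious, and Unigene74419, also of that CDS, had 30, 5, 5 and 1. All 3 were highest in the monoecious library, but Unigene2117 was lowest in the hermaphrodite and the other 2 in the andromonoecious library. As they share 1 CDS, they are not 3 independent genes. The NADH-dependent GOGAT unigenes varied little. Unigene7668 had 263, 193, 220 and 175 reads and Unigene15431 had 191, 172, 198 and 203 in that order, so their summed level stayed between 21.7 and 25.6 RPKM. No further unigene was annotated as glutamine synthetase, so no second transcript of this enzyme could be set beside the 0 hermaphrodite reads. Of 76260 unigenes, 11140 had a match in the deposited match table, and a transcript without a name would not have been found.

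Ammonium transporter 2, which brings in the substrate of glutamine synthetase, had its libraries in the order of the glutamine synthetase unigene, andromonoecious, monoecious, gynoecious and hermaphrodite from high to low. For the glutamine synthetase unigene, the order of monoecious and gynoecious lay within counting error. Unigene23257 had 192 monoecious, 103 gynoecious, 46 hermaphrodite and 304 andromonoecious reads, with the andromonoecious level 8.01-fold above the hermaphrodite (5.86 to 11.2). Its name rests on 131 nt at 85.5% identity, and no ammonium transporter unigene matched with at least 95% identity over at least 100 nt. The other ammonium transporter unigenes varied less. In the order monoecious, gynoecious, hermaphrodite and andromonoecious, ammonium transporter 1 member 2 had 192, 148, 116 and 291 reads and 1 member 1 had 51, 24, 53 and 46. Ammonium transporter 1 member 2 ranked the libraries as ammonium transporter 2 did, and 1 member 1 did not.

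Among unigenes annotated as nitrate, peptide/nitrate or nitrite transporters, other than Unigene64632_All, the andromonoecious library was often the lowest as well. Of the 17 with at least 100 reads, it was the lowest library for 9 and the highest for 0, whereas over all 34820 unigenes with as many reads it was the lowest for 20.0% and the highest for 22.7%. The counts of 9 and 0 were the same with library totals and with DESeq2 size factors in place of TMM scaling. Of the 14 that matched a CDS with at least 95% identity over at least 100 nt, each another CDS, it was lowest for 9. The median log2 difference of the transporters was −0.61 from the gynoecious (16 unigenes), −0.50 from the hermaphrodite (17) and −0.24 from the monoecious library (16), beside medians over all unigenes of −0.03, 0.02 and 0.05. Most of the 9 unigenes lowest in the andromonoecious library were annotated as probable peptide/nitrate or nitrite transporters. Among those named as nitrate transporters alone, Unigene39070 and Unigene50548 were lowest there. Unigene10659, Unigene12268, Unigene39066, Unigene39069, Unigene49705 and Unigene51809 were not. No test was made of these counts.

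The named transporters varied. NRT1.2, known in Arabidopsis for low-affinity uptake, had 2418 monoecious, 3380 gynoecious, 2868 hermaphrodite and 1648 andromonoecious reads in Unigene39070, with the andromonoecious library lowest. A further NRT1.2 unigene on another CDS, Unigene39066, had 249, 245, 332 and 264 reads in that order and was not low there. Unigene21724, an unassigned transporter of the peptide and nitrate transporter family, had 45, 14, 61 and 6 reads in that order. NRT1.5, which in Arabidopsis loads nitrate into the xylem, was lowest in the hermaphrodite library in Unigene10659, with 193, 94, 23 and 166 reads. The hermaphrodite level was 9.40-fold below the monoecious (6.08 to 15.2). For the same CDS, MELO3C006241, the authors' deposited table for gynoecious over monoecious prints 190, 46, 135 and 245 reads, lowest in the gynoecious library. Those values match Unigene5205, which carries no CDS in the per-library files, so whether it belongs to this gene is not settled. A further NRT1.5 unigene on another CDS, Unigene50548, had 226, 191, 272 and 130 reads in the same order and was lowest in the andromonoecious library. NRT1.1, the nitrate transporter and sensor of Arabidopsis, had the most reads of the family, 5393, 3122, 4242 and 3968 in Unigene51809, and was highest in the monoecious library. Its name rests on 573 nt at 83.25% identity. For its CDS, MELO3C005553, the authors' deposited table for gynoecious over monoecious prints 18, 150, 78 and 25 reads, highest in the gynoecious library. Those values match Unigene53844, which carries another CDS in the per-library files, so a direction for NRT1.1 is not settled. NRT1.3 was highest in the gynoecious library, with 28, 293, 32 and 49 reads in Unigene39069, whose name rests on 86 nt at 87.21% identity.

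**Figure D2:**
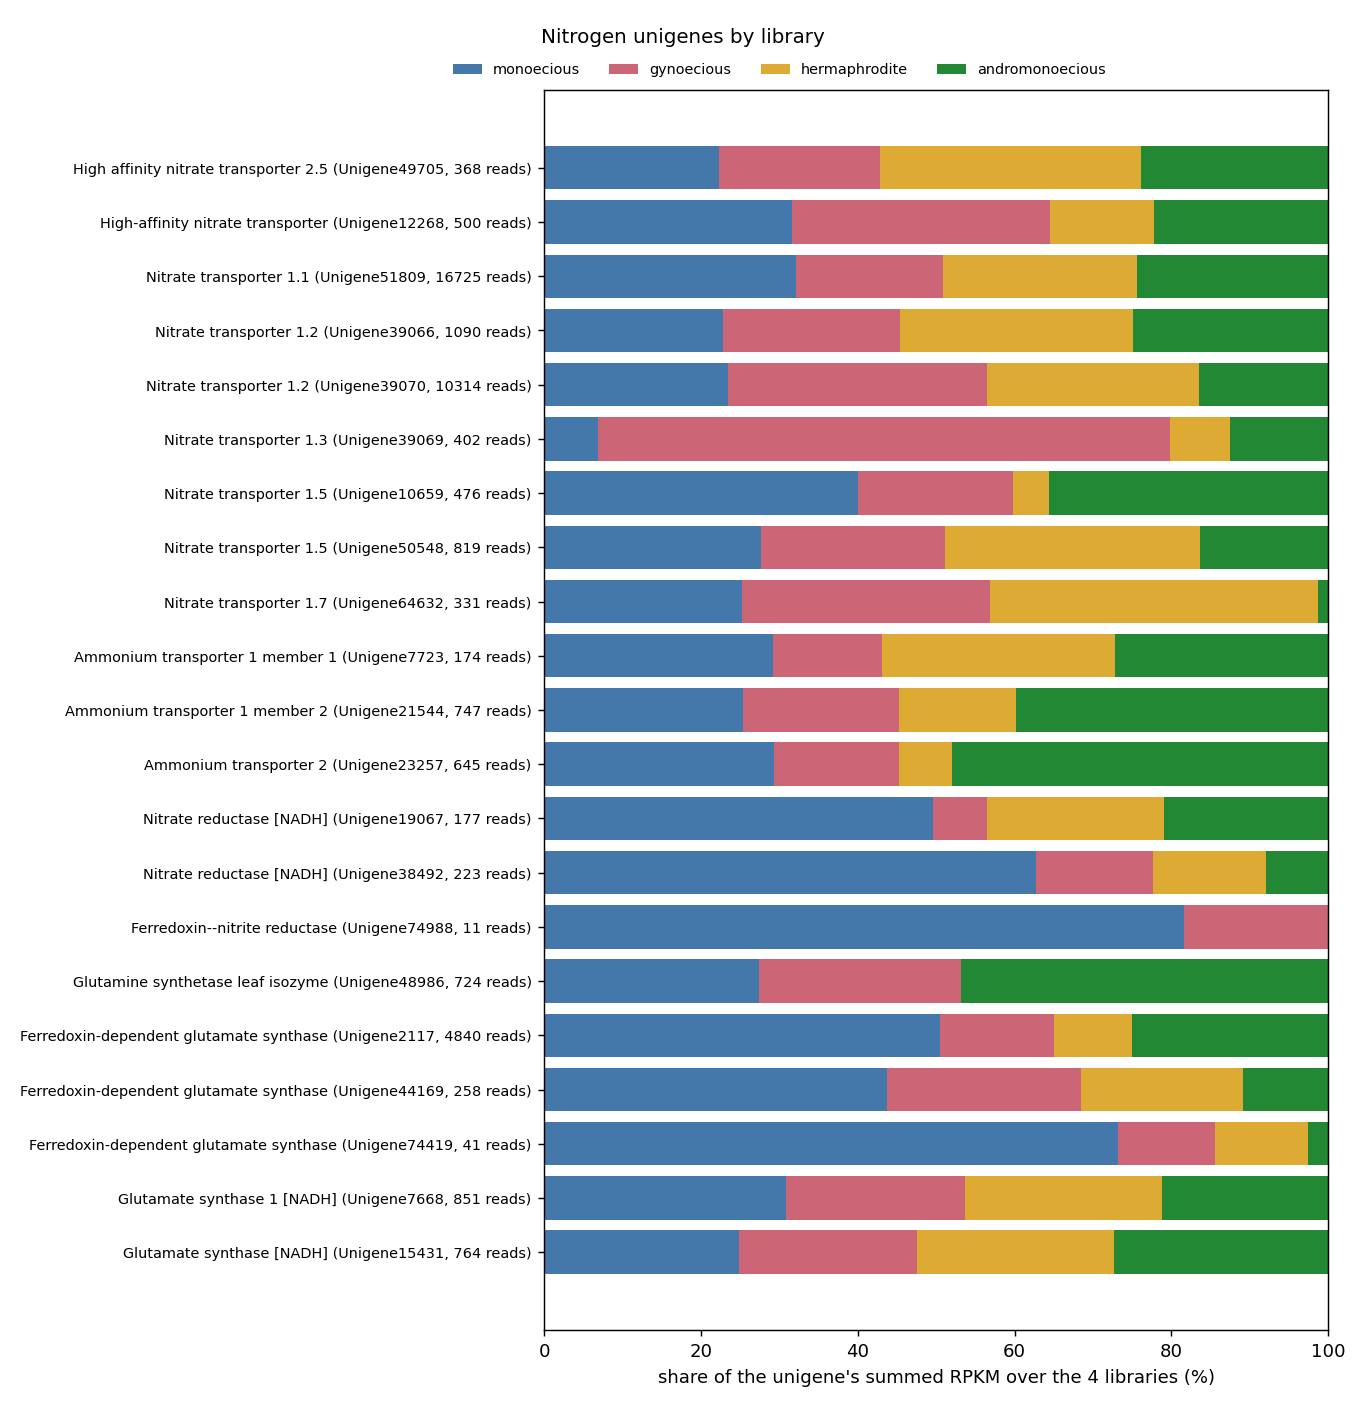
Share of each unigene's summed RPKM (horizontal axis, percent) held by each of the 4 libraries, for nitrate transporters, ammonium transporters, nitrate and nitrite reductases, glutamine synthetase and glutamate synthases, with total reads in brackets. Nitrate transporter 1.7 has 1.26% of its level in the andromonoecious library, the glutamine synthetase unigene has no hermaphrodite share, and the nitrate reductase and ferredoxin-dependent glutamate synthase unigenes have their largest share in the monoecious library.

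The wider set of 103 unigenes in 9 nitrogen lists, members left out, held changes of at least 2-fold about as often as all unigenes did. A unigene was counted where the pair held 50 or more of its reads. Between gynoecious and monoecious, 14 of 69 were higher and 9 lower in the gynoecious library, against 18.2% and 18.4% of all unigenes. Against monoecious, the hermaphrodite library was higher for 11 and lower for 8 of 71 (11.8% and 11.4% of all), and the andromonoecious for 10 and 9 of 65 (12% and 9.93%). Against gynoecious, the hermaphrodite library was higher for 8 and lower for 7 of 69 (14.1% and 13.0%), and the andromonoecious for 8 and 9 of 65 (15.6% and 12.3%). Between andromonoecious and hermaphrodite, 7 of 69 were higher and 8 lower in the andromonoecious library (11.1% and 9.50%). As shares, 33.3, 26.8, 29.2, 21.7, 26.2 and 21.7% of the nitrogen unigenes were 2-fold apart in either direction in these 6 pairs, against 36.6, 23.3, 21.9, 27.1, 28.0 and 20.6% of all. The members themselves were at least 2-fold apart in 4 pairs for glutamine synthetase and in 3 pairs each for nitrate reductase and the transporter, which follows from how they were selected. For glutamine synthetase, the log2 ratio of andromonoecious over gynoecious was 1.03 with TMM factors. With library totals only it was 0.86, which is under 2-fold.

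**Figure D3:**
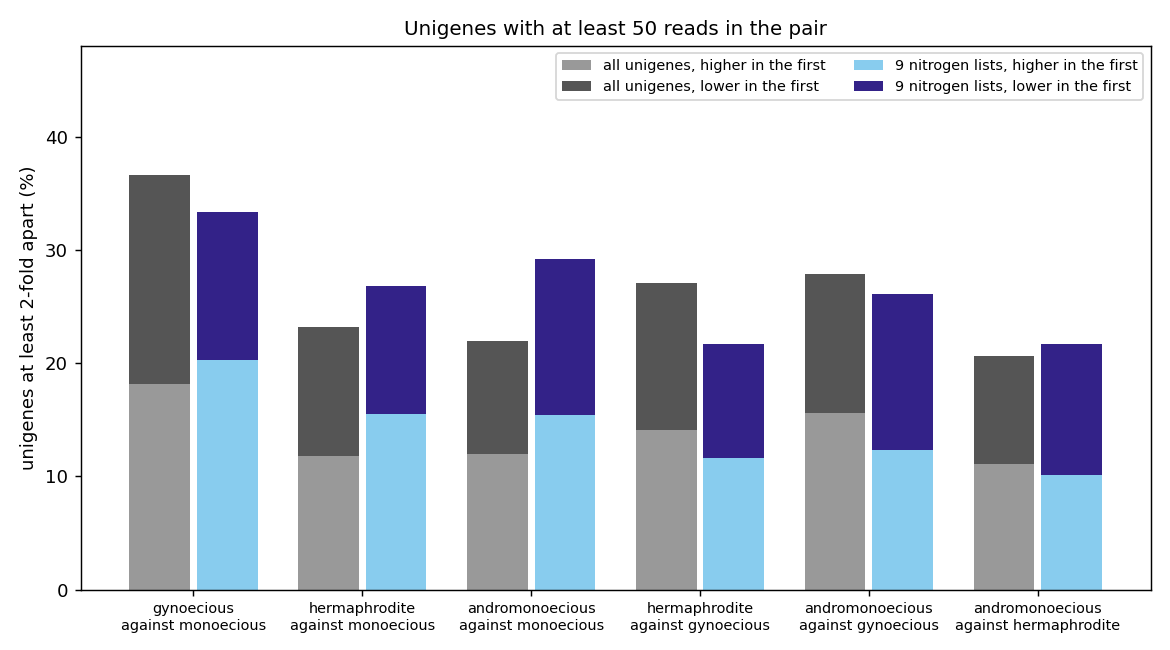
Percent of unigenes at least 2-fold apart (vertical axis) in each of the 6 pairs of libraries, for all unigenes (grey) and for the 9 nitrogen lists without the 3 members (blue), each bar split into unigenes higher and lower in the first library named. The nitrogen lists lie between 21.7 and 33.3% and all unigenes between 20.6 and 36.6%.

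Libraries were also set 2 against 2, by the a locus, by the labelled g locus and by the presence of male flowers. If the headers that exchange the hermaphrodite and andromonoecious genotypes hold, the male flower split is itself the g locus split. The labelled g split would then follow neither locus. The fits used limma on log2(RPKM + 1) over 49733 unigenes and Benjamini-Hochberg adjustment. As the 4 bulks are the only samples, p-values reflect no more than how far they lie apart. None of the 85 nitrogen unigenes tested, members left out, passed an adjusted p of 0.05 in any of the 3 splits, and edgeR's quasi-likelihood test and DESeq2 on the recovered reads called none either. Over all unigenes limma called 0.0121% for the a locus, 0% for g and 0.00201% for male flowers. At an unadjusted p under 0.05 there were 1, 1 and 8 nitrogen unigenes by limma, or 1.18, 1.18 and 9.41%, against 2.90, 5.17 and 8.25% of all. By edgeR there were 1, 3 and 7, against 2.05, 4.46 and 6.67% of all unigenes, and by DESeq2 2, 3 and 10, against 2.43, 5.13 and 7.36%. Of the 8 for male flowers, 3 were higher with male flowers. These were ferredoxin-dependent GOGAT Unigene2117 with a log2 difference of 1.51 (SE 0.44, limma adjusted p = 0.576), ammonium transporter 2 with 1.68 (SE 0.48, adjusted p = 0.565) and NRT1.5 Unigene10659 with 1.34 (SE 0.53, adjusted p = 0.590), each higher in both libraries with male flowers than in both without. The other 5 were lower with male flowers, namely the peptide and nitrate transporters Unigene4058 by a log2 difference of −1.27 and Unigene21725 by −1.23, the peptide transporters PTR3-A Unigene48784 by −1.72 and Unigene30336 by −1.14, and the asparaginase Unigene37619 by −0.85. None of the 8 held after adjustment. Without the monoecious library limma called 1 nitrogen unigene for the a locus, and without the andromonoecious library 3 for g, while the calls over all unigenes rose from 6 to 561 and from 0 to 941 of 49733. The members, selected on ratios between these libraries, were not tested.

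As nitrate reductase and leaf glutamine synthetase are typical of green tissue, markers of leaf and of pollen were read in the same libraries. The 31 leaf unigenes (light-harvesting proteins, Rubisco and photosystem subunits) summed to 317 RPKM in the monoecious, 357 in the gynoecious, 348 in the hermaphrodite and 313 in the andromonoecious library. All had reads in each library except 5 photosystem or light-harvesting unigenes that were at 0 in at least 1 library, and those had 36 reads or fewer in all. The Rubisco small chain had 1114, 609, 1351 and 1529 reads in the order monoecious, gynoecious, hermaphrodite and andromonoecious, with the hermaphrodite library second highest. The leaf markers did not share 1 order: of the 19 with at least 100 reads, the hermaphrodite library was highest for 5 and lowest for 2, among them a Rubisco large chain unigene, Unigene42420, with 155, 217, 65 and 137 reads in the same order. Only 7 of the 31 matched their CDS with at least 95% identity over at least 100 nt. The 5 pollen unigenes summed to 33.2, 34.3, 40.4 and 19.7 RPKM in the same order, none of them at 0. The andromonoecious library was lowest in this sum and for 3 of the 5, the gynoecious for 1 and the monoecious for 1. The part of tissue makeup in the levels of the 3 unigenes was not tested.

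Photorespiration, whose ammonium the leaf isozyme recaptures, was listed separately. Its 18 unigenes, which include phosphoglycerate enzymes picked by the words used, summed to 84.2 RPKM in the monoecious, 124 in the gynoecious, 130 in the hermaphrodite and 101 in the andromonoecious library. Between andromonoecious and hermaphrodite, 1 of 14 was at least 2-fold higher and 2 were lower (11.1% and 9.50% of all unigenes), with a median log2 difference of −0.15. Glycolate oxidase GLO1 had 389, 1084, 608 and 435 reads in the order monoecious, gynoecious, hermaphrodite and andromonoecious, so it was highest in the gynoecious library. The summed level of the list was highest in the hermaphrodite library, where the glutamine synthetase unigene had 0 reads, but the gynoecious sum was close (130 and 124 RPKM). Only 8 of the 18 matched their CDS with at least 95% identity over at least 100 nt.

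Well-matched unigenes with at least 100 reads were ranked by how closely their shares over the 4 libraries followed each member, out of 4209. Closest to glutamine synthetase was glyoxysomal malate synthase, an enzyme of the glyoxylate cycle, at a summed share difference of 0.122 (median over the pool 0.661). Unigene35217 had 128 monoecious, 177 gynoecious, 0 hermaphrodite and 285 andromonoecious reads. An MLO-like protein 4 (0.130) and a leucine-rich repeat receptor-like kinase (0.155) followed, with 4 and 8 hermaphrodite reads. Closest to nitrate reductase were a probable carbohydrate esterase at 0.0894, with 139, 24, 40 and 20 reads in the same order of libraries, a putative cadmium and zinc transporting ATPase at 0.0950, with 137, 22, 39 and 20 reads, and a predicted protein at 0.148. Closest to the transporter were an uncharacterised protein at 0.120, with 47, 64, 105 and 0 reads, the heat shock factor HSF24 at 0.128, with 68, 99, 134 and 24 reads, and a receptor-like kinase at 0.149. Differences of up to 0.2 were met by 7, 7 and 10 unigenes for the 3 members, and a likeness over 4 libraries is a description only.

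**Figure D4:**
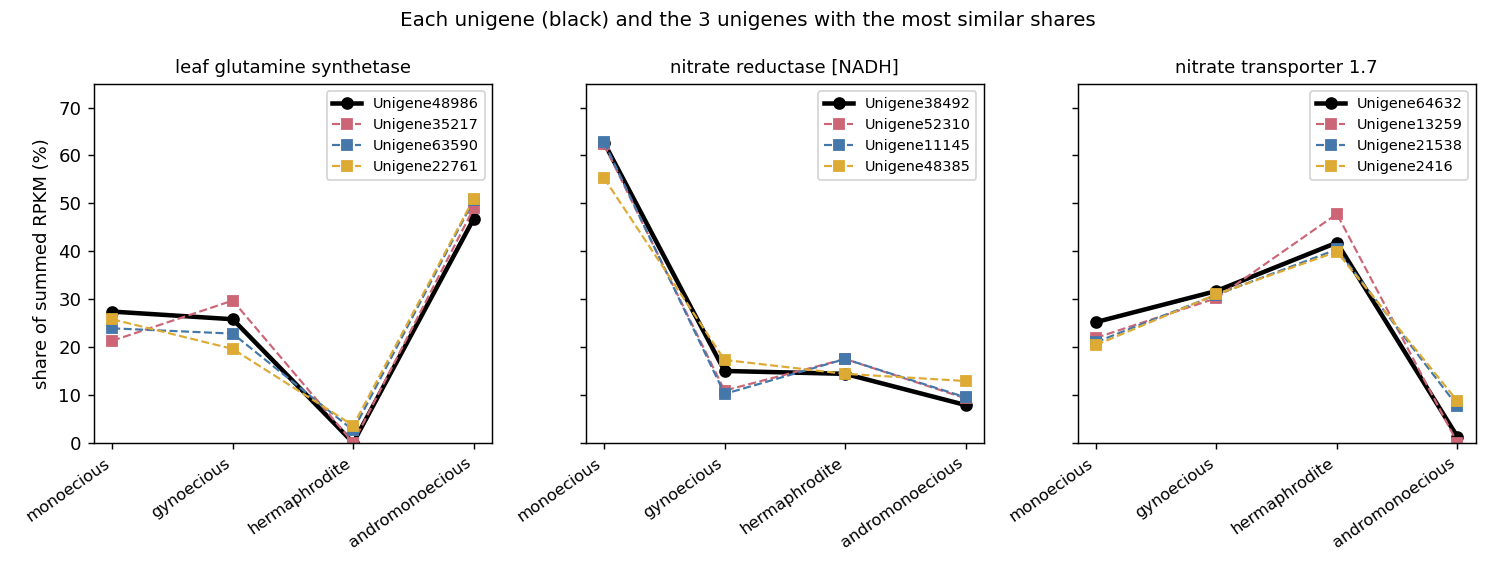
Share of each unigene's summed RPKM (vertical axis, percent) in the 4 libraries for glutamine synthetase, nitrate reductase and nitrate transporter 1.7 (black circles) and for the 3 well-matched unigenes with the most similar shares (coloured squares). The nearest unigenes follow the low hermaphrodite, the high monoecious and the low andromonoecious share of each member, with summed differences of 0.0894 to 0.155.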

How the data were processed

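The authors deposited RPKM per unigene for each library, with CDS names and products, a table of matches in percent identity, and 4 comparison tables. Per the file headers, the authors listed in the latter read counts, p-values with their false discovery rates, and log2 ratios. The aligner, the assembler and any strand setting were not given in the sources used here. In the authors' deposited tables the printed RPKM gave the listed log2 ratio within 0.05 for 54.6 to 69.7% of rows (0 taken as 0.001). The 2 locus tables, with 8 columns of per-library RPKM, were not used.

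Whole reads were recovered from RPKM with the library totals in those headers, taking the shortest length from 200 to 20000 nt that gave whole reads in all 4 libraries. All 76260 unigenes came out whole within the rounding of the RPKM, 996 of 1049 (94.9%) had the length and counts the authors list, and 97.7% were recovered on simulated data. Pair ratios used TMM factors (edgeR 4.0.16), with a prior count of 1 for lists. The 2-against-2 splits used limma 3.58.1 on log2(RPKM + 1) after filterByExpr (minimum count 10). The fit was also run on simulated reads, with the libraries of a side drawn as replicates. The bulks on each side here are of different sex types, so that run does not show how the fit performs on them. Alternatives included DESeq2 1.42.0 and edgeR on recovered reads.

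The members and lists were chosen with earlier results of these data known. Relatives with at least 50 reads, and the extremes of each list, were open to naming. Words also picked 16 unigenes of other functions. Of the 103 unigenes, 57 matched with at least 95% identity over at least 100 nt. None of the CDS names (0) was found in the RefSeq gene table, so no coordinates or sequences are given.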

Additional observations from a re-analysis of the deposited data

How the results depend on the processing

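The directions of the 18 pair ratios of the members held with library totals and DESeq2 size factors, and those of the 15 run with a prior count of 5 held too. The 3 ratios against the 0 hermaphrodite reads of glutamine synthetase are bounds and were not run with it. Of 120 values under an alternative, 106 stayed on the same side and near the same size. The counts of nitrogen unigenes at least 2-fold apart depended on low reads and on match quality. With no minimum of reads they were 48 for gynoecious against monoecious, 32 for hermaphrodite against monoecious, 40 for andromonoecious against monoecious, 32 for hermaphrodite against gynoecious, 36 for andromonoecious against gynoecious and 30 for andromonoecious against hermaphrodite. With well-matched unigenes only they were 13, 11, 9, 6, 7 and 9 in that order, as fewer were counted. Leaving out the 16 unigenes of other functions, an alternative chosen after seeing the data, gave 13 to 18. Leaving out 1 library at a time moved the limma count from 0 to 1 for the a locus (allantoin permease Unigene10081, without the monoecious library, adjusted p = 0.00651) and from 0 to 3 for the labelled g locus (Unigene10081, NRT1.3 Unigene39069 and PTR3-A Unigene48784, without the andromonoecious library), with the lone library assumed to vary like the others. Calls over all 49733 unigenes went from 6 to 561 and from 0 to 941 in the same fits. No paired analysis was possible because each sex type has 1 library. Depth limits the transporter in the andromonoecious library (4 reads) and the nitrite reductase unigene (11 reads in all).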

Other observations

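Further nitrogen unigenes differed between libraries without belonging to the steps above. Glutamate dehydrogenase 2, an enzyme known for releasing ammonium from glutamate, had 35253 reads in the andromonoecious library in Unigene31794, against 16593 in the monoecious, 18434 in the gynoecious and 15994 in the hermaphrodite, although its name rests on a match of 56 nt. Probable allantoin permease had 23 gynoecious reads against 130 monoecious, 345 hermaphrodite and 312 andromonoecious. NLP8, of a family of nitrate-responsive regulators in Arabidopsis, was highest in the gynoecious library in Unigene13285, with 18531 reads against 9590, 12198 and 15798 in the order monoecious, hermaphrodite and andromonoecious. A further NLP8 unigene, Unigene39803, was lowest there, with 16 reads against 78, 69 and 39 in the same order. In the authors' deposited table for gynoecious over hermaphrodite, a row annotated NLP8 printed 626 gynoecious reads against 1310, 974 and 1161 in that order. Its listed log2 ratio of 2.07 has the other sign, and its printed values match Unigene50752, which carries no CDS in the per-library files. The row therefore does not settle a direction for NLP8.

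The authors' deposited tables hold 36 rows of nitrogen CDS, of which 29 match unigenes with no CDS in the per-library files. In the authors' deposited table for hermaphrodite over andromonoecious, a row named glycine dehydrogenase had 1604 hermaphrodite against 317 andromonoecious reads. A row named serine–glyoxylate aminotransferase had 1230 against 287. Their values match Unigene3677 and Unigene5942, which carry no CDS in the per-library files. Unigene42590, annotated there as glycine dehydrogenase, had 35 hermaphrodite and 21 andromonoecious reads. Unigene38092, annotated there as the aminotransferase, had 33 and 39, so it was not higher in the hermaphrodite library.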
